A study of Mus musculus with 7 samples.

Results

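The genes described here build, load and line the dense-core vesicle, and 8 of them were followed through H3K27ac, a histone acetylation that marks active enhancers and promoters. They were the granins Chga, Chgb, Scg2 and Scg3, the prohormone convertases Pcsk1 and Pcsk2, and the vesicle membrane proteins Ptprn and Ptprn2. Every merged H3K27ac peak that overlapped the body of one of these genes, extended by 10 kb on each side (mm10, GENCODE M21), was taken, which gave 30 of the 66841 peaks of the series. Ptprn2 held 16 of these peaks, Ptprn 8, Pcsk2 5 and Chgb 1, whereas Chga, Scg2, Scg3 and Pcsk1 had none. Ptprn2 was selected on its measured H3K27ac, because 1 of its intronic peaks gained strongly between 0 h and 48 h, so its values are given as a description, with no p-value and no calls.

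The cells were A2Lox mouse embryonic stem (ES) cells, a transgenic line in which HA-tagged murine NeuroD1 is expressed from a doxycycline-inducible promoter. All 3 groups carried this transgene. The 0 h group received no doxycycline, and the 12 h and 48 h groups received 500 ng/ml of doxycycline for those times. Each group had 2 libraries, R1 and R2, and the design asked how H3K27ac changed as NeuroD1 was induced.

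Dense-core vesicles carry neuropeptides, hormones and monoamines in neurons and endocrine cells, and they form at the trans-Golgi network. Granins are acidic proteins that aggregate there with the cargo, and prohormone convertases cut the cargo precursors inside the maturing vesicle. Ptprn and Ptprn2 (also known as IA-2 and phogrin) are transmembrane proteins with a phosphatase-like domain that sit in the vesicle membrane. NeuroD1, a basic helix-loop-helix (bHLH) factor of neurons and endocrine cells, binds E-boxes, which have the form CANNTG.

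The sequences of 3 peak centres are shown because the largest gains of Ptprn2, as ratios to 0 h, and the one peak of the tested members called against 0 h lie there. They are 300 bases long, read on the plus strand of mm10, with each CANNTG in capitals. The first is the Ptprn2 peak with the largest ratio at 48 h, at chr12:116622597-116622896. The second, at chr12:117039003-117039302, has the largest ratio at 12 h among the other Ptprn2 peaks, from 3 and 2 reads at 0 h to 20 and 33. In scaled counts (defined below), the Ptprn2 peaks at 554 and 562 kb gained more by 12 h. Their means went from 23.5 to 89.6 and from 84.5 to 208, against 2.6 to 25.9 for the second. The third is the Pcsk2 promoter peak that was called at 48 h, at chr2:143545423-143545722.
Ptprn2 intronic peak, 137 kb: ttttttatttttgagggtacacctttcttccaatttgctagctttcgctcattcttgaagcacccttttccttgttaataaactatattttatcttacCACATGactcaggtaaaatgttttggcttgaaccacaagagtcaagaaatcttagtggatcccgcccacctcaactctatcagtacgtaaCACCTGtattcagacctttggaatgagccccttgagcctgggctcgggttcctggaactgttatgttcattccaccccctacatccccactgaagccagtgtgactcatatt
Ptprn2 intronic peak, 553 kb: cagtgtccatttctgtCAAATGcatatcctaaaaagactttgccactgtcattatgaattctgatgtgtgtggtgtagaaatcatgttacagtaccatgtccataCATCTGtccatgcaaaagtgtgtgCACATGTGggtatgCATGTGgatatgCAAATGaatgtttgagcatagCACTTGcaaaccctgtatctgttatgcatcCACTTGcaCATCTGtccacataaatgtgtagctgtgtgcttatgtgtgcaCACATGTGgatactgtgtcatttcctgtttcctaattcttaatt
Pcsk2 promoter peak: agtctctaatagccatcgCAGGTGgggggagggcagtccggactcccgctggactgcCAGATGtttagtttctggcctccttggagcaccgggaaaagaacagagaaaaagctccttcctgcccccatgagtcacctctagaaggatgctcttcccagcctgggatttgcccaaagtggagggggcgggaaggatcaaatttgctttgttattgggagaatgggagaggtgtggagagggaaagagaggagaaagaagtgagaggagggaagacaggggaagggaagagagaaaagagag

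The 300 bases of the 137 kb peak held 2 E-boxes and those of the 553 kb peak held 11, counting overlapping ones (CACATGTG holds a pair). The central 300 bases of the strongest Ptprn2 peak, at 562 kb (chr12:117047692-117047991), held 0, with 15 in the whole peak. Counts of CANNTG in other peaks are not given here, so these numbers have no background beside them. The Pcsk2 window also held 2, of which 1 reads CAGATG. Across the central 500 bp of the peaks, CAGATG was present in 12 of 30 member peaks (40.0%) and in 29.3% of the 66783 merged peaks whose sequence was read. These were 7 of the 16 Ptprn2 peaks (43.8%) and 5 of the 14 others (35.7%). CAGCTG was present in 8 of 30 member peaks (26.7%) and in 25.2% of all. Here Ptprn2 had 3 of 16 (18.8%) and the others 5 of 14 (35.7%). Shares that include Ptprn2, which was chosen for its gain, are a description only. Both strands were searched, and CAGCTG reads the same on each.

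The same and other words were searched on both strands in the RefSeq promoters (GRCm38.p6, 250 bases before to 50 after each start), in which all 8 members were found. CAGATG was present in the promoter of 0 of the 8 members and in 17.2% of all promoters, and CAGCTG in 3 members (Chga, Chgb and Pcsk2) and in 16.3% of all. TGACGTCA, the cyclic AMP response element, was present in the promoters of 3 members (Scg2, Chgb and Pcsk1) and in 1.79% of the 32851 promoters. TTCAGCACC and GGACAGC, which are parts of the element RE1 bound by the repressor REST, were both present in Scg2 and Ptprn2 and in 0.0426% of all promoters, or 14. The 30 bases around these words are printed on the strand of the gene because Scg2, without a peak, shares RE1 words with Ptprn2, which has the most. Capitals mark the words or their reverse complement, the Scg2 and Ptprn2 RE1 words lie at chr1:79440018-79440047 and chr12:116485719-116485748, and the response elements of Chgb, Scg2 and Pcsk1 lie at chr2:132781559-132781588, chr1:79440076-79440105 and chr13:75089768-75089797.
Scg2, RE1 words: ccgaggaGCTGTCCGGTGCTGAAacggccc
Ptprn2, RE1 words: cggtggcGCTGTCCGGTGCTGAAgctcggc
Chgb, TGACGTCA: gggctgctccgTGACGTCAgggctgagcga
Scg2, TGACGTCA: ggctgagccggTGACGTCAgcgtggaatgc
Pcsk1, TGACGTCA: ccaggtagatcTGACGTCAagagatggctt

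Values below are scaled counts, the reads of a peak divided by the reads of its library in all merged peaks and brought to the mean depth of the 6 libraries. Totals ranged from 6283103 to 8112895 reads. The promoter peaks of the 5 ES cell markers Pou5f1, Nanog, Zfp42, Esrrb and Tfcp2l1 summed to 11600-11700 at 0 h, 12900 after 12 h and 7630-10100 after 48 h, while Nanog (1990 and 1870, then 1580 and 1600) and Tfcp2l1 (85.2 and 83.8, then 51.5 and 43.2) were lower at 12 h than at 0 h. Of 4 neuron markers 3 had a promoter peak (Tubb3, Elavl3 and Map2, not Dcx), with sums of 149-159, 122-128 and 235-360. Of these promoter peaks, only that of Tubb3 was above 0 h in both 48 h libraries (107 and 109 at 0 h, 302 and 214 at 48 h). Those of Elavl3 and Map2 stood at 10.3 each in 48 h R2, below their 0 h libraries. Summed over all peaks of the gene body plus 10 kb, Map2 was called gained at 12 h (0.85, edgeR, adjusted p = 0.013) and 48 h (1.90, 0.0002). Tubb3 was gained at 48 h (0.91, edgeR, adjusted p = 0.0044). Elavl3 was lost at 12 h (-1.06, edgeR, adjusted p = 0.0065) and not called at 48 h (-0.58, 0.075). Of 7 fibroblast markers, for the feeder cells on which the line had been kept and which were removed before the experiments, 2 had a promoter peak (Col1a1 and Lum, not Col1a2, Col3a1, Postn, Dcn or Thy1), with sums of 33.9-40.3, 13.9-24.8 and 18.9-28.9. Summed over the peaks of the gene window, the fibroblast markers went both ways. Col1a2 was called gained at 12 h (1.12, edgeR, adjusted p = 0.017) and 48 h (1.38, adjusted p = 0.011) against 0 h. Col3a1 was gained at 12 h (1.62, edgeR, adjusted p = 0.0079) and not called at 48 h (0.33, adjusted p = 0.62). Col1a1 was lost at 12 h (-0.44, edgeR, adjusted p = 0.038) and not called at 48 h (-0.50, adjusted p = 0.051). Lum was called at neither time (-0.34 and -0.43). ChIP-seq of a culture cannot tell fewer cells with the mark from less of the mark per cell. At 48 h the libraries differed by GC content: R1 was above R2 at 75.9% of the peaks with at least 60% GC and at 40.8% of the others. Among the member peaks, R1 was above R2 at 8 of 10 and at 12 of 20 of these.

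A peak was called gained or lost at an adjusted p under 0.05 by edgeR (quasi-likelihood test), with the Benjamini-Hochberg method applied to all 66841 peaks. Of the 10666 peaks called at 12 h against 0 h, 62.2% were gained, and the share was 74.2% with TMM factors and 78.6% with DESeq2. The shares at 48 h were 61.1%, 70.5% and 78.6%. For counts summed per gene they were 19.1%, 39.7% and 32.8% after 12 h, and after 48 h they were 54.7%, 70.3% and 70.6%. The median log2 change over all 16128 gene sums was -0.29 at 12 h and 0.03 at 48 h against 0 h, and 0.32 at 48 h against 12 h.

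Ptprn2, the phogrin gene, spans 791130 bp on chromosome 12 (chr12:116485720-117276849, plus strand), and its 16 peaks lay from its promoter to 687 kb into the gene. The peak for which it was chosen, 137 kb from the start in an intron (chr12:116622354-116623138), held 1 and 1 reads at 0 h. It held 18 and 19 reads at 12 h and 49 and 51 at 48 h. Almost no reads were present before induction, and both libraries of each later time were above both of the time before. The ratio to 0 h of the summed reads, relative to library totals, was 17.6 at 12 h (95% exact interval 4.53 to 150.0) and 46.4 at 48 h (12.5 to 389). These intervals, and that of the neighbouring peak below, cover counting error only. They do not allow for the choice of Ptprn2 by its gain, so none of them tests a gain. The neighbouring peak at 138 kb (chr12:116623602-116624043) held 2 and 0 reads at 0 h, 3 and 7 after 12 h, and 23 and 21 after 48 h, a ratio of 20.4 at 48 h (5.33 to 174).

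A second region of Ptprn2 held more reads than any other of its regions in every library. There, 6 peaks lay within 16767 bp, 553 to 569 kb from the start, with summed scaled counts of 130.0 and 115 at 0 h, 358 and 374 after 12 h, and 334 and 326 after 48 h. The sum was thus already high at 12 h, and no 0 h library overlapped a later one. Within this region the peaks followed different courses. The peak at 554 kb (chr12:117039676-117040632) had scaled counts of 22.6 and 24.4 at 0 h, 101.9 and 77.3 after 12 h, and 35.5 and 57.6 after 48 h, so both 12 h libraries were above both 48 h libraries. Its fitted log2 change was 1.92 ± 0.31 (SE, n = 2 per group) at 12 h and 1.00 ± 0.33 at 48 h against 0 h. The strongest peak, at 562 kb (chr12:117046593-117049089, over an exon of the non-coding transcript Ptprn2-203), had 86.2 and 82.8 at 0 h, 189.8 and 226.3 after 12 h, and 171.0 and 172.8 after 48 h. By contrast, the peak at 568 kb (chr12:117053585-117054659) was higher at each later time, with 14.4 and 2.1 at 0 h, 35.4 and 23.0 after 12 h, and 83.3 and 66.2 after 48 h.

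Of the 16 Ptprn2 peaks, 8 had their highest mean at 48 h, 6 at 12 h and 2 at 0 h. Farther into the gene, the peak at 687 kb (chr12:117172386-117174010) had 33.9 and 23.4 at 0 h, 60.0 and 68.1 after 12 h, and 167.7 and 87.7 after 48 h. Its 48 h libraries differed from each other by more than the libraries of the earlier times did. The peak at 77.7 kb (chr12:116563151-116563693) went the other way, with 32.8 and 45.6 at 0 h, 19.3 and 19.3 after 12 h, and 15.5 and 21.5 after 48 h. Its later libraries all lay below both 0 h libraries. The promoter peak (chr12:116485737-116486085) had 6.2 and 9.6 at 0 h, 8.6 and 5.5 after 12 h, and 28.9 and 12.0 after 48 h, so that only the 48 h libraries were above both 0 h libraries, with R1 far above R2. Its GC content was 76.2%, and its log2 change at 48 h against 0 h was 1.33 ± 0.54 and 0.61 without 48 h R1.

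Summed over all 16 peaks, Ptprn2 had scaled counts of 279 and 289 at 0 h, 568 and 580 after 12 h, and 762 and 592 after 48 h. The groups at 12 h and 48 h did not overlap 0 h. The fitted log2 change was 1.02 ± 0.14 (SE) at 12 h and 1.25 ± 0.14 at 48 h against 0 h, and 0.24 ± 0.14 between 12 h and 48 h. The last was 0.05 without 48 h R1 and 0.41 without 48 h R2.

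**Figure D1:**
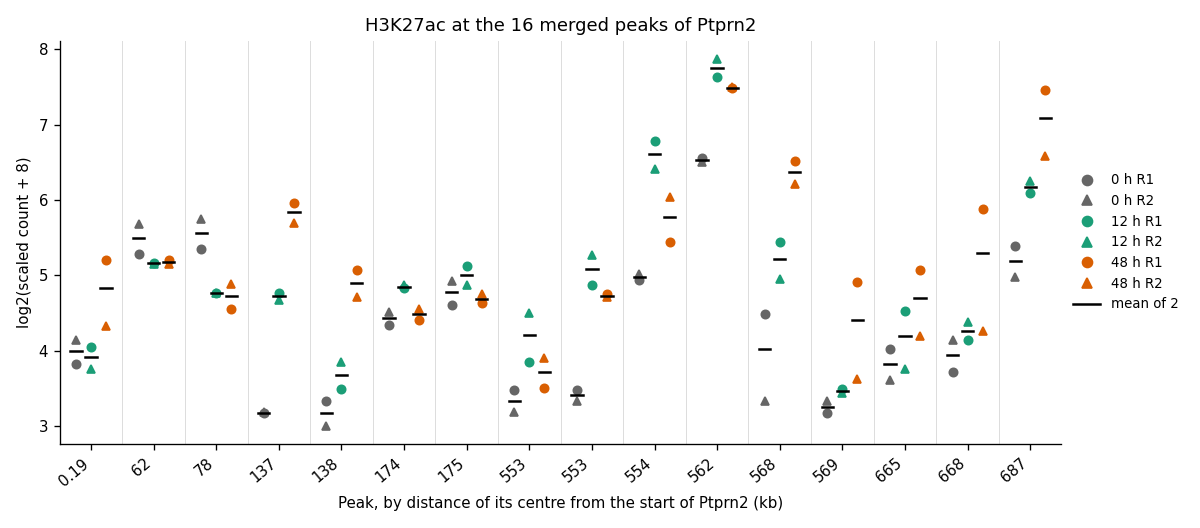
H3K27ac at the 16 Ptprn2 peaks, as log2 of the scaled count plus 8 (vertical axis), ordered by distance of the peak centre from the gene start in kb (horizontal axis). Circles are R1, triangles R2 and bars the mean of the 2 libraries of a time. The 137 kb peak starts from 1 read per library at 0 h, the 554 kb peak is highest at 12 h, and the peaks at 61.5 and 77.7 kb are highest at 0 h.

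The 3 protein-coding genes whose strongest promoter peak (mean of at least 20 reads) was most like the 137 kb Ptprn2 peak were Cnr2, Sbk1 and Plcd1, out of 12177 genes. The likeness was Pearson's r of log2(scaled count + 8) over the 6 libraries, and it was 0.996, 0.996 and 0.994. It is a description over few libraries that share depth and time points, and r does not compare the size of a change. Sbk1 had scaled counts of 290.4 and 295.1 at 0 h and 517.4 and 513.3 after 48 h. Plcd1 had 36.9 and 35.0 at 0 h and 165.4 and 153.1 after 48 h. The Cnr2 peak, at the promoter of a cannabinoid receptor gene, had scaled counts of 19.5 and 15.9 at 0 h, 71.8 and 59.8 after 12 h, and 152.1 and 117.8 after 48 h.

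Ptprn, the IA-2 gene (chr1:75247027-75264502, minus strand), is the close relative of Ptprn2. Its 8 peaks had their highest mean at 0 h in 5 cases and at 48 h in 3, and in none at 12 h. The stronger promoter peak (chr1:75263858-75264260) had scaled counts of 18.5 and 21.2 at 0 h, 11.8 and 8.3 after 12 h, and 40.0 and 13.8 after 48 h. Both 12 h libraries were below all others, and the 48 h libraries lay on either side of 0 h. The second promoter peak (chr1:75263033-75263411) followed the same course, with 8 and 9 reads at 0 h, 2 and 2 after 12 h, and 16 and 9 after 48 h.

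Both Ptprn promoter peaks were called gained at 48 h against 12 h, the stronger by 1.38 ± 0.48 on the log2 scale (edgeR, adjusted p = 0.047) and the second by 2.57 ± 0.76 (adjusted p = 0.021). For the second, the ratio of the summed reads was 6.12 (95% exact interval 2.11 to 24.2). At 12 h against 0 h the log2 changes were -0.99 ± 0.50 (edgeR, adjusted p = 0.18) and -2.09 ± 0.80 (0.075), and at 48 h against 0 h 0.39 ± 0.43 (0.62) and 0.48 ± 0.59 (0.65), so neither peak passed the test against 0 h. At 12 h the second peak passed it in a fit of the 4 libraries compared (-2.09, edgeR, adjusted p = 0.037). With an offset on GC content its change was -1.7 (edgeR, adjusted p = 0.16). Without 48 h R1 or 48 h R2 its change was -2.10 or -2.09. Without 48 h R1 the changes at 48 h against 12 h were 0.47 and 1.90, so the rise of the stronger peak rested largely on that library. Without 12 h R1 they were 1.64 and 2.67, and without 12 h R2 1.14 and 2.46. Both calls were lost in each of these fits, which leave 1 library in a group and so have less power. The stronger peak also lost its call without 0 h R1 (edgeR, adjusted p = 0.081), without 0 h R2 (0.083), with an offset on GC content (1.04, adjusted p = 0.059) and in a fit of the 4 libraries compared (0.086). The GC contents of the peaks were 67.2% and 62.0%.

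Summed over its 8 peaks, Ptprn had scaled counts of 299 and 307 at 0 h, 219 and 207 after 12 h, and 329 and 255 after 48 h. The 12 h libraries were below all others. Between 0 h and 12 h the sum fell by 0.51 ± 0.16 on the log2 scale (edgeR over the 16128 gene sums, adjusted p = 0.034), where 30.2% of all gene sums were called lost and 7.15% gained. Between 12 h and 48 h it rose by 0.45 ± 0.16 (adjusted p = 0.044), where 38.2% of all were called gained and 7.71% lost. With TMM factors the changes were -0.44 (edgeR, adjusted p = 0.10) and 0.47 (0.061), and each call was also lost without any single library of the 2 times compared except 48 h R2, with adjusted p-values of 0.13 to 0.22 for the fall and 0.15 to 0.23 for the rise. Without either 0 h library the rise also lost its call (adjusted p = 0.085). With 2 kb in place of 10 kb around the gene, the changes were -0.35 (edgeR, adjusted p = 0.32) and 0.45 (0.18).

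A large part of this sum came from a peak 28.0 kb from the Ptprn start (chr1:75235803-75237232), past the end of the gene, which is the promoter peak of Dnajb2. It had scaled counts of 156.0 and 158.1 at 0 h, 96.5 and 108.5 after 12 h, and 154.3 and 144.5 after 48 h, and its change at 12 h against 0 h was -0.61 ± 0.22 (edgeR, adjusted p = 0.055). Without 48 h R1 or 48 h R2 this change passed the test (-0.61 each, edgeR, adjusted p = 0.0027 and 0.0026), and without 48 h R2 so did the change at 48 h against 12 h (0.59, adjusted p = 0.020). The peak in the Ptprn body with the highest mean, in an intron 13.4 kb from the start (chr1:75250497-75251677), had 44.1 and 34.0 at 0 h, 44.0 and 42.3 after 12 h, and 66.6 and 42.1 after 48 h, and the groups overlapped. Over an exon 16.6 kb from the start (chr1:75247672-75248203), the scaled counts were 25.7 and 21.2, then 13.9 and 13.8, then 18.9 and 10.3, and the change at 48 h against 0 h was -0.72 ± 0.41 (edgeR, adjusted p = 0.28).

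Chgb, which encodes the granin chromogranin B, was the only one of the 4 granin members with a merged peak. This peak (chr2:132781372-132781651) covers its promoter (gene at chr2:132781278-132795079, plus strand) and held few reads, 5 and 5 at 0 h, 2 and 3 after 12 h, and 17 and 6 after 48 h. Both 12 h libraries were the lowest, while 48 h R1 stood apart from the other 5 libraries. The GC content was 70.4%. Relative to library totals, the ratio of 48 h to 12 h was 4.50 (95% exact interval 1.67 to 15.2). The log2 change was 2.17 ± 0.79 (edgeR over all peaks, adjusted p = 0.057), and the same counts tested among gene sums gave 2.15 ± 0.81 (adjusted p = 0.049), on the other side of the threshold. Without 48 h R1 the latter was 1.02 (edgeR, adjusted p = 0.44), without either 0 h library 2.16 (0.082), and without 12 h R1 or R2 2.01 (0.18) or 2.35 (0.17). Against 0 h the peak did not pass the test at 12 h (-1.04 ± 0.91, edgeR, adjusted p = 0.44) or at 48 h (1.13 ± 0.70, adjusted p = 0.32), and the latter was -0.02 without 48 h R1. Without 48 h R2, the peak passed at 48 h against 12 h (2.87, edgeR, adjusted p = 0.0020), as did the gene sum at 48 h against 0 h (1.83, adjusted p = 0.029).

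The granin genes Chga, Scg2 and Scg3 and the convertase gene Pcsk1 had no merged peak in their windows. A merged peak was present for 4 of 8 members (50.0%) and for 16128 of 21897 protein-coding genes (73.7%). Ptprn2 was chosen for one of its peaks, and of the other 7 members 3 had a peak. The nearest peak to Chga, which encodes chromogranin A (chr12:102554969-102565028), was 15344 bp outside the gene, with 21 and 6 reads at 0 h, 5 and 7 after 12 h, and 9 and 11 after 48 h. Next to Scg3 (chr9:75643189-75684056), which encodes a granin that binds chromogranin A, the nearest was 16561 bp away, at the promoter of Lysmd2, with 169 and 177, then 113 and 147, then 222 and 167 reads. The nearest peaks to Pcsk1 (chr13:75089826-75134861) and Scg2 (chr1:79434669-79440120) were 36714 and 53261 bp away. The first held 58 and 48, then 30 and 39, then 25 and 27 reads, and the second 56 and 63, then 58 and 62, then 37 and 57. Reads outside merged peaks were not counted in the table, so a low level of H3K27ac in these 4 genes was not measured.

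**Figure D2:**
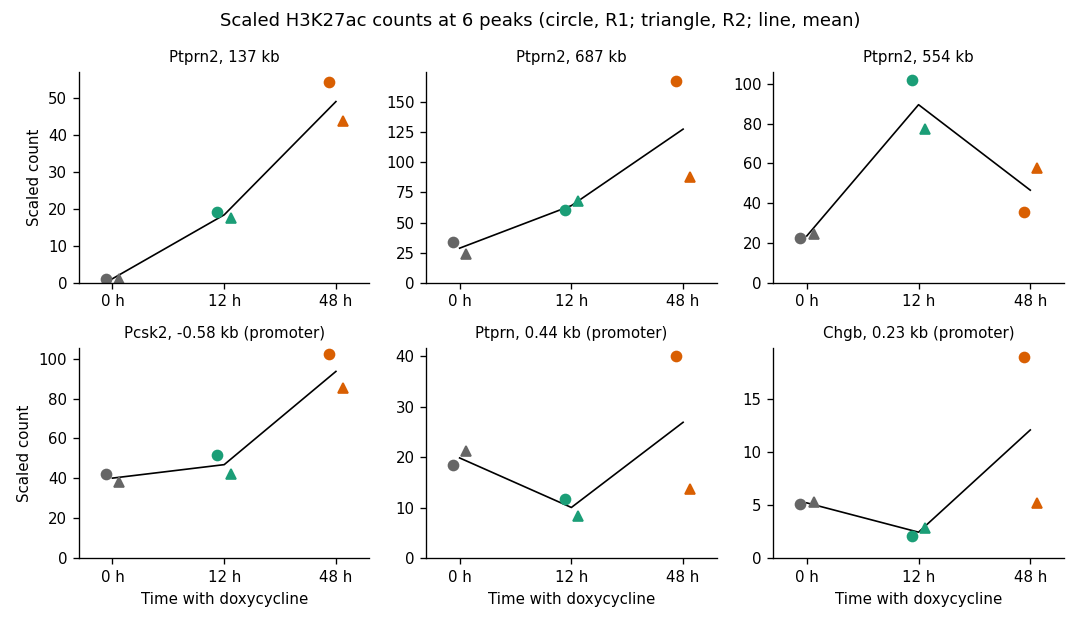
Scaled H3K27ac counts (vertical axes, from 0) at 0 h, 12 h and 48 h (horizontal axes) for 3 Ptprn2 peaks and the strongest promoter peaks of Pcsk2, Ptprn and Chgb. Circles are R1, triangles R2 and lines join the means. Pcsk2 rises after 12 h in both libraries, whereas at Ptprn and Chgb the mean at 48 h rests on R1, at 40.0 and 18.9, with R2 at 13.8 and 5.2.

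Pcsk2, which encodes the convertase PC2 (chr2:143546156-143816285, plus strand), was the only tested member with a peak called against 0 h. Its promoter peak, with its centre 584 bp upstream of the start (chr2:143545148-143545997), had scaled counts of 42.1 and 38.2 at 0 h, 51.5 and 42.3 after 12 h, and 102.1 and 85.1 after 48 h. Both 48 h libraries were far above the other 4, and 12 h lay slightly above 0 h. The peak rose by 1.21 ± 0.27 on the log2 scale at 48 h against 0 h (edgeR, adjusted p = 0.0033) and by 1.00 ± 0.26 against 12 h (adjusted p = 0.011), while the change at 12 h was 0.22 ± 0.29 (adjusted p = 0.63). Over 12 alternatives the change at 48 h against 0 h was 1.08 to 1.41, and 1 of them ended the call: without 0 h R2 it was 1.15 (edgeR, adjusted p = 0.11). Against 12 h the call was lost without 12 h R1 (1.14, edgeR, adjusted p = 0.081) and without 12 h R2 (0.86, adjusted p = 0.20). The non-coding gene Pcsk2os1, on the opposite strand, also covers this peak, and ChIP-seq does not assign it to either.

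The second Pcsk2 promoter peak (chr2:143546164-143546496), just downstream of the start, had 4.1 and 8.5 at 0 h, 8.6 and 10.1 after 12 h, and 14.4 and 20.6 after 48 h. All 48 h libraries were above all others, and its change at 48 h against 0 h was 1.48 ± 0.54 (edgeR, adjusted p = 0.066). The change was 1.47 with the GC offset (edgeR, adjusted p = 0.037) and 1.70 without 48 h R1 (adjusted p = 0.027). In the gene body, the 3 intronic peaks had lower means at 48 h than at 0 h. The strongest, 180 kb from the start (chr2:143725814-143726640), had 85.2 and 95.5 at 0 h, 70.8 and 68.1 after 12 h, and 63.3 and 59.3 after 48 h. Both later times were below 0 h, with a change of -0.56 ± 0.25 at 48 h (edgeR, adjusted p = 0.15). The peak at 85.3 kb (chr2:143631189-143631700) had the most negative fitted change of the gene at 48 h, -0.60 ± 0.38 (edgeR, adjusted p = 0.33), with 21.6 and 27.6 at 0 h and 18.9 and 13.8 after 48 h.

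The sum over the 5 Pcsk2 peaks was 192 and 200.0 at 0 h, 192 and 184 after 12 h, and 225 and 206 after 48 h. Its change at 48 h against 0 h was 0.14 ± 0.16 (edgeR, adjusted p = 0.66), and at 48 h against 12 h 0.20 ± 0.16 (adjusted p = 0.32).

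**Figure D3:**
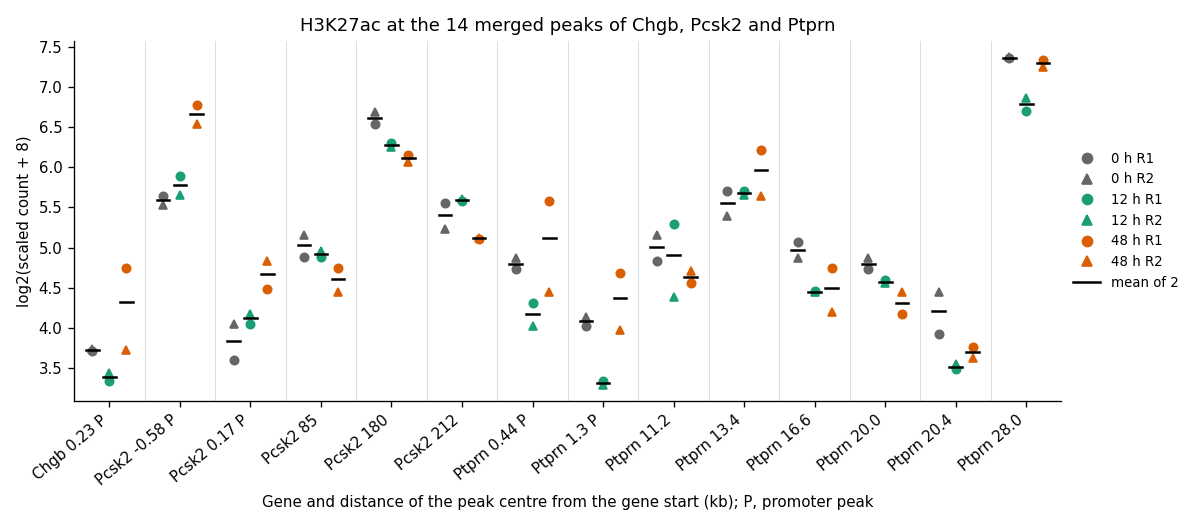
H3K27ac at the 14 peaks of Chgb, Pcsk2 and Ptprn, as log2 of the scaled count plus 8 (vertical axis), labelled by gene and distance of the peak centre from the gene start in kb, with P for promoter peaks. Circles are R1, triangles R2 and bars the mean of the 2 libraries. Only the first Pcsk2 promoter peak was called at 48 h against 0 h, with 102.1 and 85.1 against 42.1 and 38.2.

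The 14 peaks of the 7 tested members held no call at 12 h against 0 h in edgeR, with 3 at an unadjusted p under 0.05 and 0 calls in DESeq2, which gave no adjusted p for 4 of them. Of all peaks, 9.93% were gained and 6.03% lost. Against 0 h, 1 of 14 was gained and 0 were lost at 48 h, with 3 at an unadjusted p under 0.05 and 1 call in DESeq2, beside 8.56% and 5.45% of all peaks. Against 12 h, 3 of 14 were gained and 0 lost at 48 h, with 5 at an unadjusted p under 0.05 and 1 call in DESeq2, which gave no adjusted p for 7, both Ptprn promoter peaks among them. Of all peaks, 10.7% were gained and 8.43% lost. The median log2 change of the 14 was -0.35, -0.22 and 0.40 in these 3 comparisons, and that of all peaks was -0.08, -0.04 and -0.03. Of the 14 peaks 11 held at least 10 reads in 2 libraries, and the other 3 included the second Ptprn promoter peak, which was called. Among the 3 gene sums of these members, 0 were gained and 1 was lost at 12 h, 0 were called at 48 h against 0 h and 2 were gained against 12 h in edgeR, where 30.2% of all gene sums were lost at 12 h, 6.48% gained and 5.36% lost at 48 h against 0 h, and 38.2% gained against 12 h. DESeq2 called 0 in each of the 3 comparisons, and 1, 0 and 2 sums had an unadjusted p under 0.05.

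Before induction the promoter peaks of the members were below the median of all genes. A promoter peak, one that overlaps the 2 kb on either side of a start, was found for 4 of 8 members and for 13132 of the 21897 protein-coding genes (60.0%). Per kb of the strongest promoter peak, the scaled count at 0 h was 49.3 ± 4.84 (SD, n = 2) for Ptprn, 47.2 ± 3.22 for Pcsk2, 22.5 ± 6.88 for Ptprn2 and 18.6 ± 0.444 for Chgb, against a median of 112 over all genes. The first pair did not differ beyond its spread, nor did the second. At 12 h the order was Pcsk2 (55.2 ± 7.61), Ptprn (24.9 ± 6.17), Ptprn2 (20.2 ± 6.20) and Chgb (8.76 ± 1.55), against a median of 83.4, with Pcsk2 above and Chgb below the others by more than the spread. At 48 h Pcsk2 stood at 110.0 ± 14.2, near the median of 119, and Ptprn at 66.7 ± 46.0, Ptprn2 at 58.6 ± 34.1 and Chgb at 42.9 ± 34.6 were within their spread of one another. The share of genes with a lower level than Pcsk2 was 12.4% at 0 h, 27.5% after 12 h and 45.0% after 48 h. These levels are a description and were not tested.

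A list of 44 other dense-core vesicle genes was examined through the same gene sums, and 30 of them had a peak. These sums include 10 kb on each side, so they can hold peaks of neighbouring genes. For short genes, such as Pcsk1n (4589 bp) and Rab3a (3999 bp), most of the window lies outside the gene. Among the cargo, 3 of 13 neuropeptide and trophic factor genes had one (Pdyn, Pomc and Bdnf). Npy, Sst, Tac1, Cck, Penk, Adcyap1, Vip, Gal, Cartpt and Nts had none, nor did Qpct, Slc18a2, Sytl4 and Syt4. At 12 h against 0 h 4 of the 30 were gained and 3 lost, beside 7.15% and 30.2% of all gene sums. At 48 h against 0 h 3 were gained and 4 lost, beside 6.48% and 5.36%, and at 48 h against 12 h 11 were gained and 4 lost, beside 38.2% and 7.71%. The median change of the 30 was -0.35, 0.07 and 0.31, beside -0.29, 0.03 and 0.32 for all gene sums.

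Cadps, which encodes the vesicle priming factor CAPS, rose at both times. Its sums were 73.9 and 77.5 at 0 h, 163 and 166 after 12 h, and 179 and 162 after 48 h, a change of 1.12 ± 0.19 at 12 h (edgeR, adjusted p = 0.0049) and 1.17 ± 0.19 at 48 h (adjusted p = 0.0029). Rab27a, which encodes a small GTPase of vesicle release, rose by 0.43 ± 0.10 at each time (edgeR, adjusted p = 0.014 and 0.023). In a fit of the 4 libraries compared, its change at 48 h was 0.42 (edgeR, adjusted p = 0.070). Eipr1, whose product acts in vesicle formation with the EARP complex, had 986 and 774 at 0 h and 1430 and 1680 at 48 h, a rise of 0.82 ± 0.13 (edgeR, adjusted p = 0.0025). At 12 h, Cpe (0.97 ± 0.13, edgeR, adjusted p = 0.0019), the carboxypeptidase that trims peptides after the convertases, and Pdyn (0.88 ± 0.22, adjusted p = 0.014), the dynorphin precursor, rose, and both then fell by 48 h against 12 h, by 0.56 ± 0.13 (adjusted p = 0.0092) and 0.98 ± 0.22 (adjusted p = 0.0079). Each call against 0 h in this paragraph was lost in at least 1 fit without a library of the times compared. Such a fit leaves 1 library in a group and has less power, so a lost call there does not show that 1 library made the change. Over all alternatives the changes at 12 h were 1.08 to 1.18 for Cadps, 0.36 to 0.49 for Rab27a, 0.93 to 1.03 for Cpe and 0.83 to 0.95 for Pdyn.

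Other genes of the list fell. Pcsk1n, which encodes proSAAS, an inhibitor of PC1/3, had sums of 186 and 200.0 at 0 h and 101 and 108 at 48 h, a fall of 0.88 ± 0.18 (edgeR, adjusted p = 0.0096). Rab3a, a vesicle GTPase, fell by 0.55 ± 0.10 at 12 h (edgeR, adjusted p = 0.0061) and 0.41 ± 0.10 at 48 h (adjusted p = 0.022). Cyb561, a cytochrome of the vesicle membrane, and Cadps2, the paralogue of Cadps, fell at 48 h by 0.52 ± 0.14 and 0.62 ± 0.15 (edgeR, adjusted p = 0.038 and 0.023). At 12 h, Ccdc186, a vesicle formation gene, fell by 0.55 ± 0.18 and Baiap3, of the Munc13 family, by 0.83 ± 0.19 (edgeR, adjusted p = 0.033 and 0.012). With TMM factors the calls of Ccdc186 at 12 h (edgeR, adjusted p = 0.092) and of Rab3a (0.088), Cyb561 (0.12) and Cadps2 (0.072) at 48 h were lost. With the 2 kb window the changes at 48 h were -0.84 for Pcsk1n (edgeR, adjusted p = 0.079) and -0.26 for Rab3a (0.20).

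Between 12 h and 48 h, 5 of the 7 vesicle formation genes were gained (Hid1 1.60, Arfip1 0.97, Ccdc186 0.69, Rab2a 0.60 and Eipr1 0.50), where 38.2% of all gene sums were gained with a median change of 0.32, and this group was not tested as such. Scg5, which encodes the PC2 chaperone 7B2, had 124 and 72.2 at 0 h, 75.1 and 64.4 after 12 h, and 162 and 171 after 48 h, so that both 48 h libraries were the highest, with a rise of 1.26 ± 0.26 against 12 h (edgeR, adjusted p = 0.0065). Resp18 (1.69 ± 0.51, edgeR, adjusted p = 0.022), next to Ptprn, counts the same 2 promoter peaks as Ptprn does and is no separate measurement. The kinesin gene Kif1a (1.00), the calcium sensor gene Syt7 (0.80), Baiap3 (0.77) and the GTPase gene Rab3d (0.44) were also gained, and Syt9 (-0.60) and Pcsk1n (-0.52) were lost. With TMM factors Syt7 (edgeR, adjusted p = 0.053) and Pcsk1n (0.060) lost their calls. With the 2 kb window Pcsk1n stood at -0.17 (edgeR, adjusted p = 0.63) and Rab3d at 0.34 (0.26). In a fit of the 4 libraries compared, Hid1 (edgeR, adjusted p = 0.056), Rab3d (0.065), Kif1a (0.074), Pcsk1n (0.078) and Syt7 (0.081) lost their calls. So did Rab3d (adjusted p = 0.055), Kif1a (0.080), Pcsk1n (0.11) and Syt7 (0.12) in DESeq2. Without 48 h R1 the changes were 0.85 for Resp18 (edgeR, adjusted p = 0.15), 1.04 for Hid1 (0.057), 0.58 for Syt7 (0.13) and 0.55 for Kif1a (0.21). Hid1 also stood at 2.42 without 12 h R1 (edgeR, adjusted p = 0.065) and 1.04 without 12 h R2 (0.21). The number of list genes called moved when 1 library was left out. It fell without a 0 h or 12 h library and, against 0 h, rose without a 48 h library. Each such fit leaves 1 library in a group, and this loss was not told apart from an effect of the library itself.

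**Figure D4:**
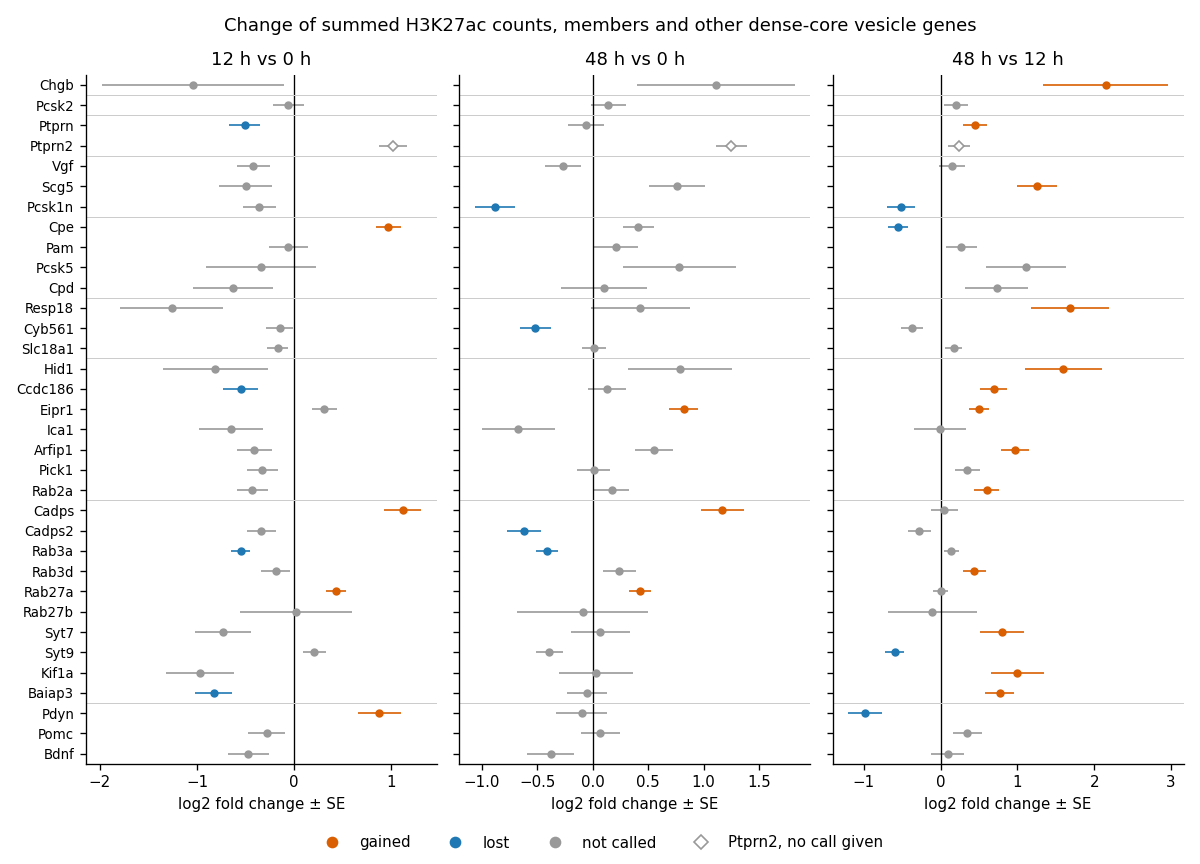
Log2 fold change of summed H3K27ac counts with its SE (horizontal axes) for the 4 members with a peak and the 30 other dense-core vesicle genes (vertical axis, by role), in 3 comparisons. Orange and blue mark sums called gained and lost by edgeR, grey marks no call and the open diamond Ptprn2, for which no call is given. Cadps is gained at 12 h and 48 h against 0 h (1.12 and 1.17). At 48 h against 12 h, 11 of the 30 list genes are gained and 4 lost, beside 38.2% and 7.71% of all gene sums.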

How the data were processed

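H3K27ac ChIP-seq of A2Lox cells gave 6 libraries, 2 per time point (6283103 to 8112895 reads in merged peaks). The authors checked the reads with FastQC, aligned them with Bowtie2 (local mode) to mm10, used SAMtools 0.1.19 (per the labels), called peaks with MACS2 against the Input, merged them over samples, and deposited raw read counts per merged peak, counted with QuasR. Other versions are not given in the sources used here, and the Input library was not used here. The labels do not say that replicates were separate cultures, so p-values measure only the spread between these samples.

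The counts were tested with edgeR 4.0.16 (R 4.3.3, quasi-likelihood, 6 libraries in 1 model, library totals as offset, 3 residual degrees of freedom), over all 66841 peaks and over counts summed per protein-coding gene with a peak (16128), with Benjamini-Hochberg adjustment and a threshold of 0.05. DESeq2 1.42.0, TMM factors, a filter of 10 counts in 2 libraries, a replicate block, fits of the 4 libraries compared, an offset on GC content, leaving out each library, a 2 kb window and a minimum change of 2-fold were alternatives. The fits were tested on simulated data. Intervals are exact binomial. Sequences came from mm10 and the RefSeq promoters (GRCm38.p6), read with pysam 0.24.0.

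The members, the vesicle gene list and the ES cell, neuron and fibroblast marker lists were chosen with earlier results of these data known. Named peaks were, per member, the strongest promoter peak, the strongest peak, those with the largest gain and loss at 48 h against 0 h (mean of at least 10 reads) and, except for Ptprn2, every called peak. Other peaks that are named were chosen after their values were seen. Of the vesicle gene list, genes called in any comparison and genes without a peak were named.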

Additional observations from a re-analysis of the deposited data

Results flagged for a closer look

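Between 12 h and 48 h of doxycycline, the changes from 0 h differed by a direct test (edgeR, 48 h against 12 h, adjusted over all features) at the Pcsk2 promoter peak (log2 difference 1.00, adjusted p = 0.011), at the 2 Ptprn promoter peaks (2.57, adjusted p = 0.021, and 1.38, adjusted p = 0.047), and for the summed counts of Chgb (2.15, adjusted p = 0.049) and Ptprn (0.45, adjusted p = 0.044). These comparisons share the 0 h libraries, and the test itself compares only 48 h with 12 h. Of all features, 10.7% of peaks and 38.2% of gene sums were gained in it. In a fit of the 4 libraries compared, the sums of Chgb and Ptprn lost their calls (edgeR, adjusted p = 0.08 and 0.086). DESeq2 called 0 of the 3 tested member sums and gave no adjusted p for 1 of them.

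Among the other dense-core vesicle genes, the summed counts were higher at 48 h than at 12 h for Resp18 (1.69, edgeR, adjusted p = 0.022), Hid1 (1.60, 0.026), Scg5 (1.26, 0.0065), Kif1a (1.00, 0.039), Arfip1 (0.97, 0.0052), Syt7 (0.80, 0.043), Baiap3 (0.77, 0.0097), Ccdc186 (0.69, 0.012), Rab2a (0.60, 0.014), Eipr1 (0.50, 0.012) and Rab3d (0.44, 0.034). They were lower for Pdyn (-0.98, edgeR, adjusted p = 0.0079), Syt9 (-0.60, 0.0059), Cpe (-0.56, 0.0092) and Pcsk1n (-0.52, 0.037). Over all gene sums the median difference was 0.32, and 38.2% were called gained and 7.71% lost. With 2 libraries per time point, no test for an outlying library within a group was run.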

How the results depend on the processing

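Counts of calls among the 14 tested member peaks were 0, 1 and 3 at 12 h against 0 h, 48 h against 0 h and 48 h against 12 h. They became 2 at 12 h in a fit of the 4 libraries compared, 2 at 48 h with the GC offset and 1 at 48 h against 12 h with DESeq2. Leaving out 1 library gave 0 to 2, 0 to 2 and 0 to 5. Member gene sums gave 1, 0 and 2 calls. At 12 h they gave 0 with TMM factors, DESeq2, the 2 kb window or a minimum change of 2-fold. At 48 h against 12 h they gave 1 with TMM factors, the filter, the 2 kb window or the minimum change, and 0 with DESeq2 or 4 libraries. Leaving out 1 library gave 0 to 1, 0 to 1 and 0 to 2. The vesicle gene list gave 7, 7 and 15 calls. With 4 libraries it gave 21 at 12 h and 3 at 48 h against 0 h, with TMM factors or DESeq2 4 at 48 h against 0 h, and with the minimum change 1, 1 and 3. Leaving out 1 library gave 0 to 21, 0 to 13 and 0 to 21. The cause of these moves was not tested, except that the minimum change is a stricter rule.

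Some directions turned, among peaks and sums with no call in that comparison. At 12 h against 0 h, the Pcsk2 intronic peak at 85.3 kb gave 0.28 and that at 180 kb 0.02 with the GC offset, and the Pcsk2 sum 0.01 with TMM factors. Leaving out 1 library gave -0.31 to 0.05 for the 85.3 kb peak and -0.03 to 0.34 for the Ptprn peak at 13.4 kb. At 48 h against 0 h, the Ptprn peak at 28.0 kb gave 0.00 with TMM factors and 0.11 with the GC offset, and the Ptprn sum 0.02 with TMM factors, 0.02 with DESeq2 and 0.11 with the 2 kb window. Leaving out 1 library gave -0.02 to 1.83 for the Chgb peak and sum (1.13 and 1.11 with all libraries), -0.19 to 0.99 and -0.52 to 1.01 for the Ptprn promoter peaks (0.48 and 0.39) and -0.25 to 0.12 for the Ptprn sum. At 48 h against 12 h, the Ptprn peak at 16.6 kb gave -0.11 with the GC offset. Leaving out 1 library gave -0.42 to 0.44 for it and -0.03 to 0.63 for the 13.4 kb peak. The cause was not tested.

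The replicate numbers did not pair the samples: deviations of same-numbered libraries correlated at -0.0362, -0.0496 and 0.078. With the replicate block the calls were 0, 1 and 3 for member peaks, 1, 0 and 2 for member sums and 8, 8 and 15 for the list. With 2 libraries per time and few reads at the promoter peaks of Chgb, Ptprn and Ptprn2, smaller changes could not be detected.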
